A study of Rattus norvegicus with 16 samples.

Results

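The genes described here are those that were high in both CA1 and the dentate gyrus (DG) of the rat hippocampus and low in CA2 and CA3, the subfields that lie between them. They were selected on the mean level of each gene in each subfield, in CPM, the count of a gene scaled to a common library size. The lower of the CA1 and DG means had to be at least 3 CPM and at least 2 times both the CA2 and the CA3 mean, and the CA1 and DG means had to lie within 4-fold of each other. Of the 32883 genes in the count table, 108 met these conditions, and 107 of them are described here. Because the contrasts of CA1 and DG with CA2 and CA3 chose the genes, those differences are given as a description, without a test.

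The study sequenced RNA of 4 male Wistar rats aged 3 months, with no treatment named in the labels. The granule cell layer of DG and the pyramidal cell layer of each of CA1, CA2 and CA3 were cut out by laser capture microdissection, in which a laser frees a chosen layer from a brain section. By the labels, each rat gave 1 library per subfield, 16 libraries in all, and the replicate number stands for the rat. CA2 replicates 2 and 4, and DG replicates 2 and 4, were too alike to count as separate samples, as described below. The rat of these columns is therefore not known. A captured layer holds the cell bodies of its principal neurons along with any glia and interneurons among them, so fewer cells of a type and less RNA per cell cannot be told apart in any value below.

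Granule cells of DG take up most of the cortical input to the hippocampus and send mossy fibres to CA3, whose pyramidal cells project through the Schaffer collaterals to CA1. CA2 is a small field between CA3 and CA1 with a gene expression program of its own. CA1 and DG are therefore separated both in position and in cell class, pyramidal against granule cells, and genes shared by them cut across the usual division of the hippocampus.

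The library totals lay between 3216512 counts in CA1 replicate 4 and 11933279 in CA3 replicate 2. At these depths 103 of the 107 genes had 10 or more counts in every CA1 and DG library, and 2 had a count of 0 in a CA2 or CA3 library. Within a subfield, the counts of each pair of libraries were set against each other by a chi-square test across genes, where sampling noise alone gives about 1 per degree of freedom. CA2 replicates 2 and 4 gave 1.0002 over 12684 genes and differed by no more than the sampling noise, and DG replicates 2 and 4 gave 1.04 over 13171 genes, a small excess. For the other 22 pairs the value lay between 2.95 and 44.9. Both repeated pairs were therefore counted as 1 sample each, and means ± SD have n = 3 in CA2 and DG and n = 4 in CA1 and CA3, while the means that chose the genes took all 4 columns. Taken with each pair as 1 replicate, the same conditions found 114 genes, 104 of them among the 107.

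Known markers of the subfields followed the labels. The 4 CA1 markers used (Wfs1, Pex5l, Htr5b and Ndst4), all 3 CA2 markers (Amigo2, Cacng5 and Ccdc3), all 3 CA3 markers (Fxyd7, Gjd2 and Cyp26b1) and all 7 DG markers (Prox1, C1ql2, Rfx3, Trpc6, Stxbp6, Grm2 and Dsp) had their highest mean in the subfield they mark. These names come from the study's list of genes that mark a single subfield, which was chosen on these samples, so this is no independent check of the labels. Wfs1, a membrane protein of the endoplasmic reticulum, had a CA1 mean of 873 ± 96.5 CPM (SD, n = 4) and a DG mean of 16.9 ± 3.13 CPM (SD, n = 3). C1ql2, a secreted synaptic protein of mossy fibres, had a DG mean of 314 ± 65.3 CPM (SD, n = 3) and a CA1 mean of 1.31 ± 0.318 CPM (SD, n = 4). The CA1 markers summed to 4.42% of their CA1 mean in DG, and the DG markers to 3.67% of their DG mean in CA1. The choice of the markers makes such shares low, so nothing is read from them. Each subfield had 8 marker symbols prepared, and those without an identifier were not used.

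The count table names genes by Ensembl identifier, and only 288 identifiers could be paired with a symbol. None of the 107 shared genes is among them, since those 288 were picked for a high level in a single subfield. The shared genes are for this reason described as a group and by their levels, with few identifiers, and no function, position or promoter sequence is given for them. Of the 352 symbols in the gene lists prepared for this tissue, 28 had an identifier and 0 were shared genes, so those lists say nothing about the group. The 64 markers of glia, vessels, interneurons and immature granule cells had 0 identifiers and were not analysed here.

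Summed over the 107 genes, the level was 4410, 4384, 4327 and 4529 CPM in CA1 replicates 1 to 4. In the same order it was 6463, 6383, 6924 and 6311 CPM in DG. CA2 had 1293, 1952, 1545 and 1927 CPM and CA3 had 1242, 1454, 1169 and 1384 CPM. The sum was lowest in CA3 replicate 3 and highest in DG replicate 3, and no CA2 or CA3 library came near the lowest CA1 library. Mean sums were 4412 ± 85.1 CPM for CA1 and 1312 ± 130 CPM for CA3 (SD, n = 4), and 6578 ± 305 CPM for DG and 1592 ± 326 CPM for CA2 (SD, n = 3). Libraries of CA1 and DG varied little around their means, and those of CA2 varied most.

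**Figure D1:**
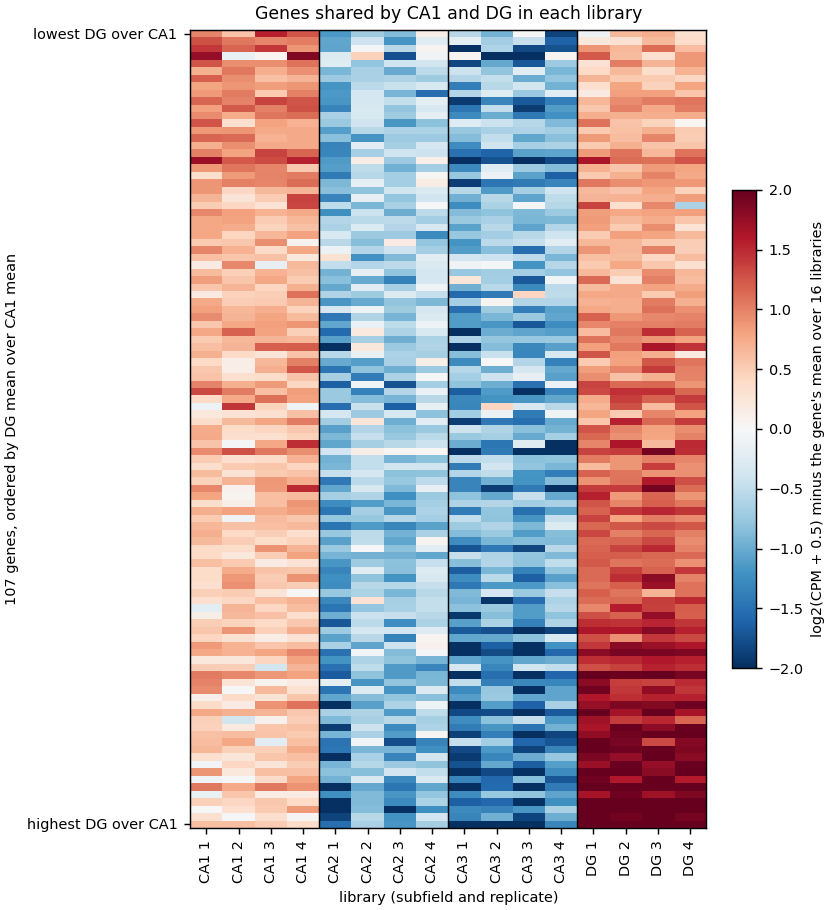
Heat map of the 107 genes (rows, ordered by the DG mean over the CA1 mean) in the 16 libraries (columns). Colour is log2(CPM + 0.5) minus the gene's mean over all libraries, red above and blue below. Most genes are red in the CA1 and DG libraries and blue in those of CA2 and CA3, since the subfield means chose them, and the bottom rows are darker red in DG than in CA1.

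Most of the shared genes were of moderate abundance. The lower of the CA1 and DG means ran from 3.34 to 426 CPM with a median of 19.7 CPM. It was under 10 CPM for 36 genes, from 10 to under 30 CPM for 40, from 30 to under 100 CPM for 21 and 100 CPM or more for 10. These levels are not corrected for gene length, so they rank reads and not transcripts.

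The excess over CA2 and CA3 was mostly modest. The lower of the CA1 and DG means over the higher of the CA2 and CA3 means had a median of 2.38 and a highest value of 5.36, and it was at least 3 for 18 genes and at least 4 for 2. All 107 had counts in both CA2 and CA3: the lowest means were 0.900 CPM in CA2 and 0.450 CPM in CA3, and the median gene stood at 8.25 CPM in CA2 and 5.61 CPM in CA3. Whether these counts come from the principal cells of CA2 and CA3 was not tested.

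The gene with the largest ratio is listed as ENSRNOG00000017459. It had 81.2, 66.2, 81.4 and 72.8 CPM in CA1 replicates 1 to 4 and 207, 224, 298 and 223 CPM in DG. In CA2 it had 4.80, 18.96, 13.8 and 18.7 CPM, and in CA3 7.13, 13.0, 7.43 and 14.4 CPM. Every CA1 and DG library stood above every CA2 and CA3 library, with CA2 replicate 1 the lowest of all 16. Its CA1 mean was 5.36 times its CA2 mean and 7.19 times its CA3 mean, and its DG mean was 3.16 times its CA1 mean.

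The gene with the second largest ratio among those with at least 10 CPM in both CA1 and DG is listed as ENSRNOG00000008620. It had 106, 99.6, 94.2 and 90.1 CPM in CA1 and 219.9, 202, 237 and 192 CPM in DG. The CA2 libraries had 15.7, 29.0, 23.2 and 26.8 CPM and the CA3 libraries 10.9, 17.6, 11.9 and 16.8 CPM. Again no library of CA2 or CA3 reached those of CA1 or DG, and CA2 replicate 1 was the lowest of the CA2 libraries. In CA2 against CA3, whose means both entered the choice, it was higher in CA2 by 0.67 on the log2 scale (standard error 0.16, adjusted p = 0.00746 in edgeR), and 0.63 with the repeated libraries summed (adjusted p = 0.0287 in edgeR). The call was lost in a fit with the rat as a replicate block and without either column of the repeated pairs, chosen after the data were seen (0.53, adjusted p = 0.0668 in edgeR).

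The most abundant of the shared genes had 366, 432, 443 and 464 CPM in CA1 and 491, 509, 507 and 512 CPM in DG. Its CA2 libraries held 122, 229.8, 178 and 236 CPM and its CA3 libraries 116, 112, 77.2 and 106 CPM. This gene was nearly level between CA1 and DG, with a DG mean 1.18 times the CA1 mean, and it stood higher in CA2 than in CA3 in every library.

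**Figure D2:**
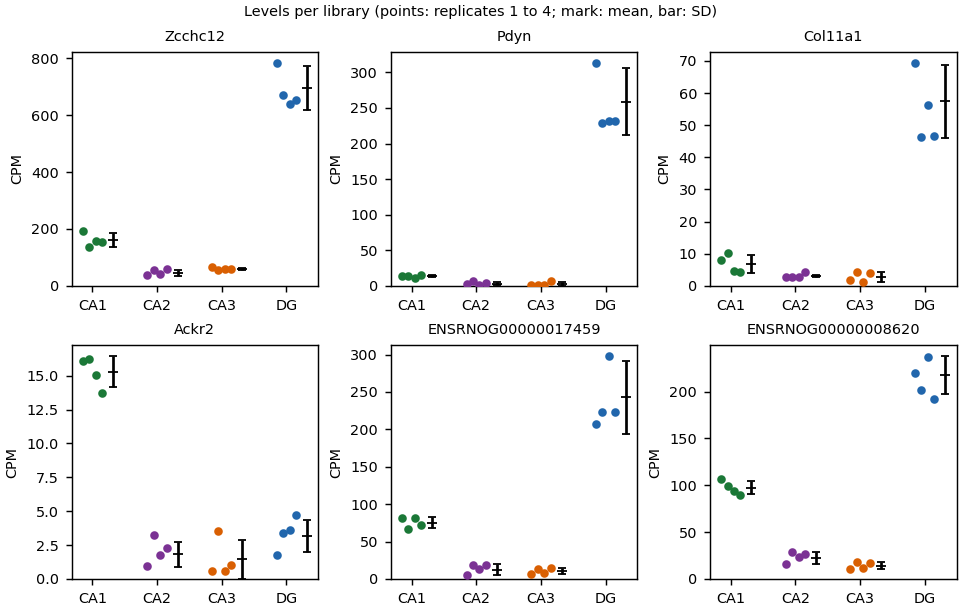
Levels in CPM of 4 named genes that lie outside the conditions and of the 2 shared genes with the largest ratio, in CA1, CA2, CA3 and DG. Points are replicates 1 to 4, and the mark and bar beside them are mean ± SD with repeated libraries as 1 replicate (n = 4 in CA1 and CA3, n = 3 in CA2 and DG). ENSRNOG00000017459 reaches 298 CPM in DG replicate 3 and stays at or below 18.96 CPM in CA2, while Pdyn is far higher in DG than in CA1.

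In 97 of the 107 genes all 8 CA1 and DG libraries lay above all 8 CA2 and CA3 libraries. The same held for 3.89% of all 17174 genes tested, and since the contrast chose the genes nothing is read from the difference. With the repeated libraries as 1 replicate the count was 98. Of the 10 genes whose libraries overlapped, the highest CA2 or CA3 library was in CA2 for 6 and in CA3 for 4, and each of 7 libraries was the highest in 1 or 2 genes.

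Between CA1 and DG the conditions allow a difference of up to 4-fold either way. The DG mean was the higher for 82 genes and the CA1 mean for 25. The DG over CA1 ratio ran from 0.607 to 3.94 with a median of 1.40, and 60 genes were within 1.5-fold. A DG mean at least 2 times the CA1 mean occurred in 28 genes and the reverse in 0, so the spread was lopsided, reaching the 4-fold bound only on the side of DG. All 4 DG libraries lay above all 4 CA1 libraries for 55 genes, against 20.0% of all genes tested, and all 4 CA1 libraries above all 4 DG libraries for 4 genes, against 12.9%. The bound and the condition on both subfields shape these counts, and nothing is read from them. The remaining 48 genes overlapped between CA1 and DG, and for these no order of the subfields can be given. With TMM scaling the counts of 55 and 4 became 46 and 8, and with DESeq2 size factors 47 and 8.

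The gene with the largest DG over CA1 ratio had 35.8, 35.8, 33.6 and 30.3 CPM in CA1 and 129, 137, 129 and 139 CPM in DG. Its CA2 libraries had 7.87, 14.8, 10.2 and 14.6 CPM and its CA3 libraries 3.79, 5.46, 4.46 and 9.18 CPM. It thus formed 4 steps, DG over CA1 over CA2 over CA3, with CA2 replicate 1 and CA3 replicate 4 overlapping. That order of means, with DG highest and CA3 lowest, was also the most frequent, in 61 genes, followed by DG, CA1, CA3 and CA2 in 21, CA1, DG, CA2 and CA3 in 18 and CA1, DG, CA3 and CA2 in 7.

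The gene with the largest CA1 over DG ratio had 20.2, 15.04, 30.3 and 24.7 CPM in CA1 and 9.28, 16.1, 16.8 and 12.6 CPM in DG. Its CA1 mean was 1.65 times its DG mean, but CA1 replicate 2 lay below the 2 highest DG libraries. The libraries of CA1 and DG thus overlapped for this gene. Its CA2 libraries had 4.22, 5.92, 5.23 and 10.9 CPM and its CA3 libraries 6.67, 4.93, 10.04 and 2.40 CPM. DG replicate 1 lay below CA2 replicate 4 and CA3 replicate 3, so the gene did not stand clear of CA2 and CA3.

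**Figure D3:**
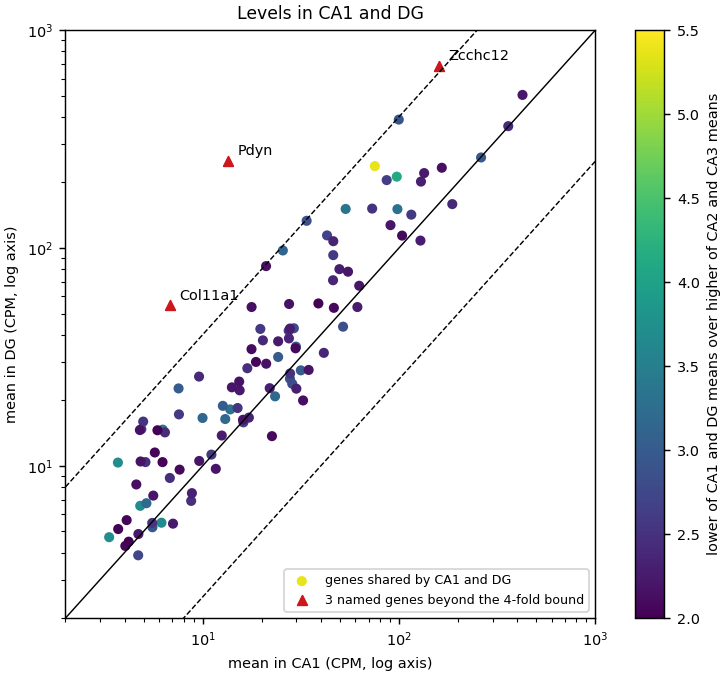
Mean level in CA1 (x axis) against mean level in DG (y axis), both in CPM on log axes, for the 107 shared genes (circles, coloured by the lower of the CA1 and DG means over the higher of the CA2 and CA3 means) and for 3 named genes beyond the 4-fold bound (triangles). The solid line marks equal levels and the dashed lines 4-fold differences. There are 82 circles above the solid line and 25 below it.

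The difference between CA2 and CA3 was not itself a condition, but both means entered the choice, each as a ceiling. The calls between them are therefore given as a description of the shared genes. In edgeR's quasi-likelihood test over all 17174 genes with more than 10 counts in total, 23 of the 107 genes (21.5%) had an adjusted p under 0.05, against 10.1% of all genes tested. Of these, 21 were higher in CA2, against 5.25% of all genes tested, and 2 were higher in CA3, against 4.87%. Among the 11229 genes with at least 3 CPM in both CA1 and DG, which are nearer to the shared genes in level, 12.6% were called, 6.61% higher in CA2 and 6.02% higher in CA3. The median log2 fold change was 0.17 for the shared genes and 0.00 over all genes tested, and 75 of the 107 were above 0. Since the values tested also chose the genes, nothing is read from these differences. The 21 genes higher in CA2 had log2 fold changes from 0.67 to 2.25 with a median of 1.09. All 4 CA2 libraries stood above all 4 CA3 libraries in 16 of the 107 genes, against 7.58% of all genes tested, and the reverse held in 3, against 6.01%.

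These counts take the repeated CA2 libraries as separate samples. With the counts of each repeated pair summed, 19 genes were called, all of them among the 23, against 7.65% of all genes tested. Of these, 17 were higher in CA2, against 4.16%, and 2 in CA3, against 3.48%. With the rat as a replicate block 29 genes were called, against 15.2% of all genes tested, 26 of them higher in CA2, against 7.76%, and 3 in CA3, against 7.47%. A block fit without either column of the repeated pairs, chosen after the data were seen, called 19 genes, of which 16 were among the 23, against 9.38% of all genes tested. There 17 were higher in CA2, against 4.83%, and 2 in CA3, against 4.55%. These 3 fits rest on CA2 and CA3 libraries that also chose the genes, and are no separate evidence.

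**Figure D4:**
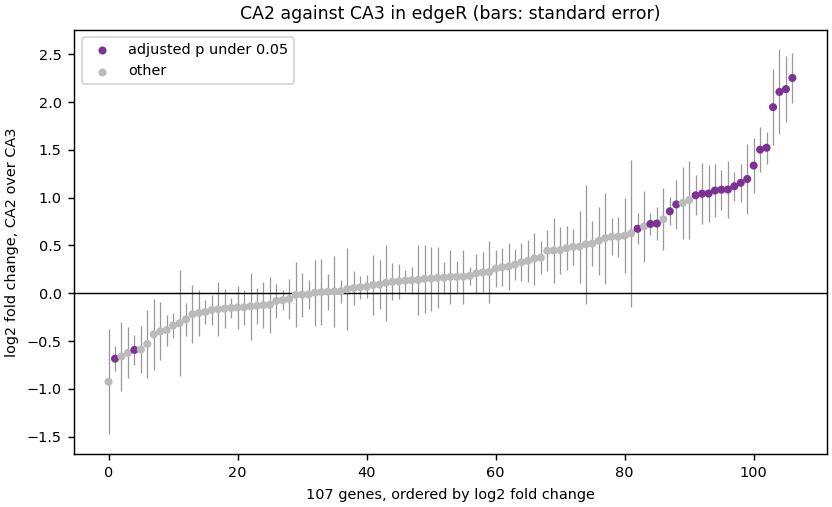
Log2 fold change of CA2 over CA3 in edgeR for the 107 shared genes, ordered along the x axis, with bars of 1 standard error. Purple points have an adjusted p under 0.05 over all genes tested. There are 21 purple points above 0, reaching 2.25, and 2 below it.

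Among the genes higher in CA2, the one with the smallest p, singled out after its values were seen, is listed as ENSRNOG00000009802. It had 10.4, 13.3, 13.1 and 14.3 CPM in CA2 and 5.004, 4.72, 3.22 and 4.39 CPM in CA3. All 4 CA2 libraries were above all 4 CA3 libraries, and CA2 over CA3 was 1.52 on the log2 scale (standard error 0.17, adjusted p = 5.40e-07 in edgeR). Its CA1 mean of 27.6 ± 3.57 CPM (SD, n = 4) and its DG mean of 56.2 ± 4.96 CPM (SD, n = 3) complete a series of 4 separate levels. When single libraries were left out, its log2 fold change of CA2 over CA3 lay between 1.40 and 1.61.

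The gene with the smallest p on the side of CA3, singled out in the same way, is listed as ENSRNOG00000007765. It had 18.0, 19.4, 15.7 and 24.6 CPM in CA3 and 10.6, 13.3, 11.7 and 13.9 CPM in CA2. Here too the libraries did not overlap, in the opposite order, and CA2 over CA3 was -0.68 on the log2 scale (standard error 0.13, adjusted p = 0.000742 in edgeR). Its CA1 mean was 46.2 ± 1.11 CPM (SD, n = 4) and its DG mean 71.2 ± 4.13 CPM (SD, n = 3), both above all CA2 and CA3 libraries.

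The level of the shared genes differed among the CA2 libraries, and the summed levels of CA1 and DG markers did so with it. The median shared gene deviated from its own CA2 mean by -0.31 in replicate 1, 0.19 in replicate 2, -0.09 in replicate 3 and 0.25 in replicate 4, on the log2 scale. Over all genes tested these medians were -0.02, 0.01, 0.00 and 0.02. CA2 replicate 1 was the lowest of the 4 CA2 libraries for 66 of the 107 genes, as it was for 38.7% of all genes tested. Each CA2 library entered the mean that chose the genes, so nothing is read from this difference. The conditions found 97 genes without CA2 replicate 1, 120 without replicate 2, 99 without replicate 3 and 122 without replicate 4.

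The 4 CA1 markers summed to 140.2, 317, 232 and 338 CPM in CA2 replicates 1 to 4, with Wfs1 the most abundant among them in each at 65.9, 165, 105 and 168 CPM. The 3 CA2 markers summed to 260, 182, 229 and 179.9 CPM, most of it from Amigo2, a cell adhesion protein, at 187, 116, 152 and 124 CPM. The sum was highest in replicate 1, but not every marker was, since Ccdc3 had 3.07, 6.81, 5.85 and 4.55 CPM and was lowest there. The 7 DG markers summed to 48.4, 74.0, 61.8 and 84.6 CPM. Both the CA1 and the DG marker sums were thus lowest in replicate 1, next in replicate 3 and higher in the repeated pair. The median deviation of the shared genes had the same order. Of the DG markers, Prox1, Rfx3, Trpc6 and Grm2 were lowest in replicate 1. Stxbp6 was lowest in replicate 2, C1ql2 in replicate 3 and Dsp in replicate 4. The 3 CA3 markers summed to 23.0, 11.3, 19.4 and 13.6 CPM, highest in replicate 1. None of the CA1 markers was at 0 in a CA2 library, the lowest value being that of Htr5b, a serotonin receptor, in replicate 1 at 8.45 CPM. Whether RNA of CA1 or DG in the CA2 libraries has a part in the levels of the shared genes there was not tested.

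In scale, the CA1 markers in CA2 stood at 15.9% of their CA1 mean, while the shared genes stood at 36.1% of theirs. In CA3 the CA1 markers were at 7.72% and the shared genes at 29.7%. The same levels chose both sets of genes, the markers as genes of a single subfield, so nothing is read from the difference. Measured against DG, the 7 DG markers in CA2 were at 3.79% of their DG mean and the shared genes at 24.2%.

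CA3 showed a smaller spread of the same kind. The median shared gene deviated by -0.13, 0.15, -0.16 and 0.14 on the log2 scale in CA3 replicates 1 to 4. The CA1 markers summed to 64.8, 236, 77.7 and 74.9 CPM there, and the DG markers to 58.8, 80.7, 72.6 and 112 CPM. Replicate 2 was therefore apart in CA1 markers and replicate 4 the highest in DG markers. In these 2 libraries the shared genes were high. In CA1 markers, however, replicate 4 lay below replicate 3. Of the DG markers, Prox1, C1ql2, Rfx3, Trpc6 and Grm2 were highest in replicate 4, and Stxbp6 and Dsp in replicate 3. Whether RNA of CA1 or DG has a part in the levels of the shared genes in CA3 was not tested. The test of CA2 against CA3 called 19, 22, 19 and 23 shared genes without CA3 replicates 1, 2, 3 and 4 in turn. In CA1 the median deviations stayed between -0.04 and 0.06, and in DG between -0.04 and 0.07.

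**Figure D5:**
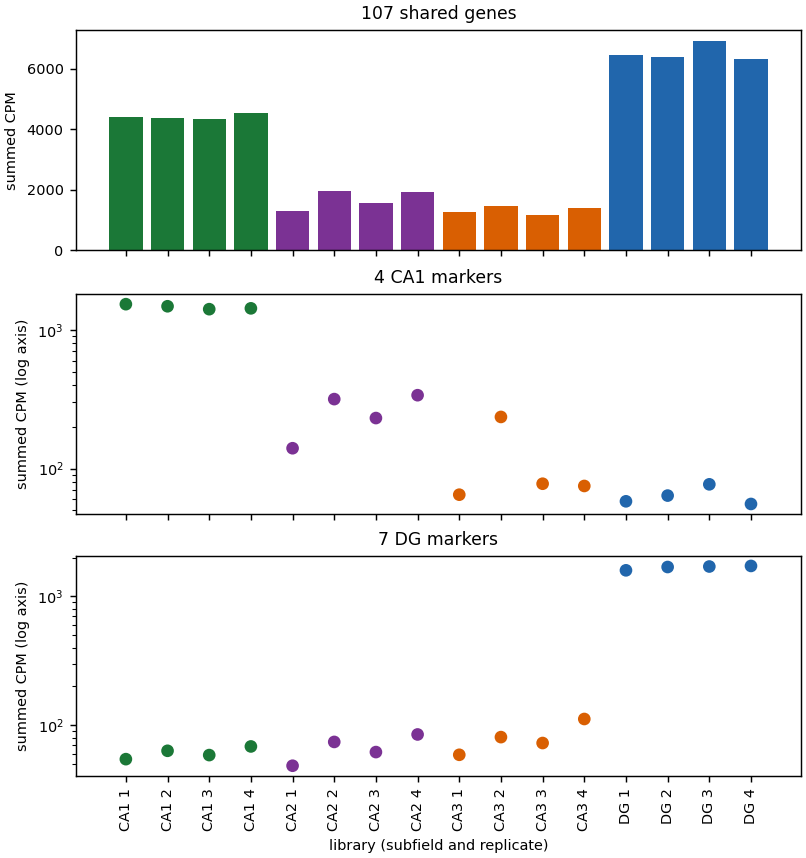
Summed level in CPM of the 107 shared genes (top, linear axis), the 4 CA1 markers (middle, log axis) and the 7 DG markers (bottom, log axis) in each of the 16 libraries, coloured by subfield. In CA2 the shared genes and the CA1 markers are both lowest in replicate 1, at 1293 and 140.2 CPM, and CA3 replicate 2 stands apart in CA1 markers at 236 CPM.

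The rat was a factor on which the choice of genes set no condition. Since the rat of a repeated column is not known, both columns of each repeated pair were left out, and the remaining 12 libraries were fitted with subfield and rat in edgeR. The rat term had an adjusted p under 0.05 for 13 of the 107 genes (12.1%), against 11.3% of the 16720 genes tested. As a share this is near that of all genes, and it is no result about the shared genes. A further 16 had an unadjusted p under 0.05 only, against 13.6% of all genes tested. The count was sensitive to the libraries used: it fell to 6 without DG replicate 1 or without DG replicate 3, to 7 without CA3 replicate 1 and to 8 without CA2 replicate 1 or without CA2 replicate 3. With all 16 libraries it was again 13, of which 9 were the same genes, against 13.1% of all genes tested, and with the CA1 and CA3 libraries alone it was 3, against 2.68%.

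The 13 genes had lower means from 4.10 to 165 CPM with a median of 20.3 CPM, close to the median of 19.2 CPM of the other 94. CA1 replicate 1 was the lowest of the CA1 libraries in 9 of the 13, against 45.6% of all 1892 genes called for the rat, and CA3 replicate 1 the lowest of the CA3 libraries in 7, against 49.5%. The gene with the smallest p had 10.96, 2.58, 2.99 and 11.7 CPM in CA1 replicates 1 to 4 and 3.03, 0.210, 0 and 2.99 CPM in CA3. It was thus higher in replicates 1 and 4 than in replicates 2 and 3 in CA1 and CA3, with an adjusted p of 0.000134 for the rat term in edgeR. In DG it had 7.47, 4.76, 3.797 and 5.69 CPM, a flatter pattern. CA2 had 2.30, 4.15, 0.498 and 2.73 CPM, with replicate 1 above replicate 3 there too. Its highest value was in replicate 2, 1 of the columns left out of the fit, whose rat is not known. Of the 23 genes called between CA2 and CA3, 1 was also called for the rat.

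The thresholds divide a continuous range. The 3 shared genes nearest the level threshold had lower means of 3.34, 3.70 and 3.71 CPM, and the 3 nearest below it had 2.87, 2.51 and 2.20 CPM. At the ratio threshold the nearest inside had ratios of 2.012, 2.015 and 2.016, and the nearest outside 1.999, 1.998 and 1.993. Of the latter, 1 had means of 105 CPM in CA1 and 209 CPM in DG against 52.4 CPM in CA2 and 48.0 CPM in CA3, so an abundant gene was left out by a margin far inside the replicate spread. At the 4-fold bound the nearest inside had ratios of 3.94, 3.93 and 3.89. Genes just inside and just outside are thus alike, and 107 is a count at these settings.

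Of all genes, 11229 had at least 3 CPM in both CA1 and DG. Among these, 177 were at least 2 times CA2 and 307 at least 2 times CA3, and 113 were both. CA2 was thus the stricter of the 2 comparisons, and CA2 had the higher of the 2 low means for 79 of the 107 genes. Beyond the 4-fold bound lay 5 genes that met the other conditions, all of them higher in DG. They include Zcchc12, Pdyn and Col11a1, which carry symbols because the study lists them as genes of DG.

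Zcchc12, a zinc finger protein known as a transcriptional coactivator in bone morphogenetic protein signalling, lay close to the bound. It had 194, 136, 157 and 153 CPM in CA1 and 784, 670.1, 638 and 654 CPM in DG. In CA2 it had 38.0, 57.5, 40.5 and 57.8 CPM and in CA3 66.3, 57.0, 58.7 and 58.1 CPM. The CA1 libraries stood above all CA2 and CA3 libraries, and the DG mean was 4.29 times the CA1 mean. Unlike most shared genes its CA3 mean was the higher, but CA2 over CA3 missed the threshold at -0.36 on the log2 scale (standard error 0.13, adjusted p = 0.0798 in edgeR). It passed the threshold with the rat as a replicate block (-0.37, adjusted p = 0.0283 in edgeR). The call was also made without CA2 replicate 2 (-0.45, adjusted p = 0.0442 in edgeR) and without CA2 replicate 4 (-0.46, adjusted p = 0.0373 in edgeR), the repeated pair. With the counts of the repeated pairs summed it was not (-0.42, adjusted p = 0.0783 in edgeR). A block fit without either column of the repeated pairs, chosen after the data were seen, changes both choices at once. It gave -0.72 (adjusted p = 8.47e-05 in edgeR). That fit keeps only CA2 replicates 1 and 3, the lowest CA2 libraries of Zcchc12 at 38.0 and 40.5 CPM. With each library left out the log2 fold change of Zcchc12 lay between -0.46 and -0.27. Its CA2 and CA3 means both met the ceilings of the choice, so nothing is read from these calls.

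Pdyn encodes prodynorphin, the precursor of the dynorphin opioid peptides that granule cells store in mossy fibres. Its DG libraries had 313, 229, 232 and 232 CPM and its CA1 libraries 14.3, 13.4, 11.3 and 14.96 CPM. In CA2 it had 2.69, 6.81, 1.87 and 3.41 CPM and in CA3 1.52, 1.57, 0.743 and 7.19 CPM. Even at 18.7-fold below DG, the lowest CA1 library was above every CA2 and CA3 library, and the CA1 mean was 3.65 times the CA2 mean and 4.90 times the CA3 mean. CA2 over CA3 missed the threshold (log2 fold change 0.44, standard error 0.46, adjusted p = 0.674 in edgeR). Without CA3 replicate 4, the highest CA3 library of Pdyn, CA2 over CA3 was 1.303 on the log2 scale (adjusted p = 0.0247 in edgeR). It moved the other way, to 0.05, without CA2 replicate 2 (adjusted p = 0.979 in edgeR) and to 0.10 without CA3 replicate 3 (adjusted p = 0.949 in edgeR). The CA2 and CA3 means of Pdyn both met the ceilings of the choice, so nothing is read from these calls.

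Col11a1, a chain of a fibril-forming collagen, was the lowest of these named genes. It had 8.19, 10.2, 4.48 and 4.45 CPM in CA1 and 69.3, 46.4, 56.3 and 46.7 CPM in DG. CA2 had 2.88, 2.67, 2.74 and 4.32 CPM and CA3 had 1.82, 4.30, 1.12 and 3.99 CPM. The lowest CA1 library was at 4.45 CPM and the highest CA2 library at 4.32 CPM, so CA1 and CA2 were barely separated. The CA1 mean was 2.17 times the CA2 mean. Without CA1 replicate 2 this ratio was 1.81, under the condition of 2.

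Other genes of DG with a symbol had CA1 means above those of CA2 and CA3, but less than 2 times the CA2 mean over all 4 columns, and are named after their values were seen. Gabrd, the delta subunit of GABA-A receptors that carry tonic inhibition, had means of 14.6 ± 2.12 CPM in CA1 and 5.14 ± 2.78 CPM in CA3 (SD, n = 4), and of 9.02 ± 0.807 CPM in CA2 and 94.1 ± 10.7 CPM in DG (SD, n = 3). Its CA2 over CA3 missed the threshold at 0.75 on the log2 scale (standard error 0.26, adjusted p = 0.0678 in edgeR) and passed it with the rat as a replicate block (0.76, adjusted p = 0.0344 in edgeR). It also passed in DESeq2 (adjusted p = 0.0243) and with no filter on low counts (adjusted p = 0.02498 in edgeR). In the block fit without either column of the repeated pairs, chosen after the data were seen, it passed as 1.05 (adjusted p = 0.0155 in edgeR). It missed with the repeated libraries summed (adjusted p = 0.0941 in edgeR) and with the CA2 and CA3 libraries alone (adjusted p = 0.169 in edgeR). Single CA3 libraries moved it either way, to 1.20 without replicate 2 (adjusted p = 0.00167 in edgeR) and to 0.48 without replicate 3 (adjusted p = 0.236 in edgeR). Pde1b, a phosphodiesterase activated by calcium and calmodulin, had means of 51.7 ± 4.53 CPM in CA1 and 29.2 ± 4.25 CPM in CA3 (SD, n = 4), and of 32.7 ± 5.22 CPM in CA2 and 247 ± 18.6 CPM in DG (SD, n = 3). Both had the order of means DG, CA1, CA2 and CA3 that was the most frequent among the shared genes, and in both every CA1 library stood above every CA2 and CA3 library. Pde7b, a phosphodiesterase of cyclic AMP, had a CA1 mean of 8.31 ± 1.78 CPM (SD, n = 4) and a CA2 mean of 4.74 ± 1.78 CPM (SD, n = 3), with libraries from 6.61 CPM in CA1 and up to 6.82 CPM in CA2 that overlapped. Grm2, a metabotropic glutamate receptor coupled to inhibition of adenylyl cyclase, had a CA1 mean of 3.11 ± 1.21 CPM (SD, n = 4) and a CA2 mean of 1.49 ± 1.15 CPM (SD, n = 3), with libraries that overlapped too. Over all 4 columns its CA2 mean was 1.81 CPM, and CA1 was 1.72 times that.

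On the side of CA1 the nearest named gene was Ackr2, an atypical chemokine receptor that takes up chemokines without signalling through G proteins. It had 16.1, 16.2, 15.1 and 13.7 CPM in CA1 and 1.80, 3.36, 3.63 and 4.74 CPM in DG. CA2 had 0.960, 3.26, 1.74 and 2.27 CPM and CA3 had 0.607, 3.57, 0.620 and 0.998 CPM. Its CA1 mean was 7.42 times the CA2 mean, while its DG mean was 1.64 times the CA2 mean with libraries that overlapped, so it is a gene of CA1 with no clear excess in DG. Within CA2 and CA3 it was highest in CA2 replicate 2 and CA3 replicate 2. CA3 replicate 2 was also the highest of the CA3 libraries in CA1 markers. Of the CA2 libraries the highest in CA1 markers was replicate 4, at 338 CPM against 317 CPM in replicate 2. Whether Ackr2 follows the CA1 markers there was not tested.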

How the data were processed

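Reads were aligned by the authors to the Rnor6 assembly (STAR), and the deposited counts per Ensembl gene are raw. The counting program and its use of strand are not given in the sources used here, so counts of overlapping or near-identical genes are uncertain. The deposited tables of the authors' own comparisons hold fold changes and p-values made with DESeq2 and were not used. From the counts, CPM was computed with library sums that leave out 2 genes of very high counts, and the mean of the 4 columns of each subfield chose the genes at the thresholds given above. The members and the gene lists were chosen with earlier results of these data known. Some genes are not reported here.

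Tests used edgeR 4.0.16 (limma 3.58.1) in R 4.3.3, with TMM normalization, quasi-likelihood F-tests and Benjamini-Hochberg adjustment over all genes with more than 10 counts. Standard errors are the log2 fold change over the root of F. The fit for CA2 against CA3 had 1 coefficient per subfield, and that for the rat had terms for subfield and rat. The procedures were tested on simulated counts. Alternatives were DESeq2 1.42.0, its size factors, other filters, the replicate block, repeated libraries summed, other scalings and thresholds, and each library left out. Tables were made in Python 3.11.15 with pandas 2.3.3 and plots with matplotlib 3.10.9.

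The genes to be named were set by a rule: the 12 shared genes with the largest ratio and at least 10 CPM in CA1 and DG, the 8 most abundant, the 6 most tilted to each of CA1 and DG, the 5 of smallest p either way in CA2 against CA3 and for the rat, members of the lists, and the 3 nearest each threshold. Genes without a symbol are counted, with at most 2 identifiers printed, and 2 more were added after values were seen. The planned motif search in promoters was not run, because no identifier matched the promoter table.

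The replicate number is the rat, by the sample descriptions, so by the labels the samples are paired across subfields. For the repeated columns of CA2 and DG this pairing is not known. Deviations of same-numbered libraries from their subfield means correlated over 9264 genes with r from 0.61 to 0.68 for replicate 1 and from -0.13 to 0.45 for replicates 2 to 4. Repeated columns can be assigned to a wrong rat in the block fit.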

Additional observations from a re-analysis of the deposited data

Results flagged for a closer look

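In CA3, replicate 2 stood far from the other 3 libraries in the CA1 markers, whose summed level was 236 CPM against 64.8 to 77.7 CPM. Among them Wfs1 had 129 CPM against 10.6 to 17.0 CPM in the others, and Htr5b had 7.98 CPM against 1.36 to 1.82 CPM. The sum and these genes are not independent of each other. In CA3, Pdyn had 7.19 CPM in replicate 4 against 0.743 to 1.57 CPM in the others. Only CA1 and CA3, with 4 separate libraries each, were examined, for single genes and sums of genes, which made 66 groups of 4 values. A distant library is found by chance in about 1 of 20 such groups, or 3.3 of the 66, and 4 were found. The cause was not tested.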

How the results depend on the processing

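The number of shared genes moved with the thresholds that define it: 71 at a level of at least 10 CPM, 341 at a ratio of at least 1.5 and 18 at a ratio of at least 3. With other scalings it was 91 (TMM), 93 (DESeq2 size factors) and 117 (sums over all genes), of which 89, 93 and 104 were among the 107, and it lay between 97 and 122 with each library left out. TMM moves all genes of the DG libraries by -0.14 to -0.10 on the log2 scale relative to the average library. It moves those of CA1 by -0.03 to 0.01, of CA2 by 0.02 to 0.08 and of CA3 by 0.06 to 0.13. These shifts bear on the ratio to CA2 and CA3 as well as on CA1 against DG. With TMM 8 genes, in place of 4, had all CA1 libraries above all DG libraries, as with DESeq2 size factors (8). That count was 4 to 6 with each library left out. The reverse count, 55, was 46 (TMM), 47 (DESeq2 size factors), 51 (sums over all genes) and 55 to 60 with each library left out. The count clear of CA2 and CA3, 97, was 94, 96, 97 and 97 to 100 in the same order. Calls between CA2 and CA3 were 18 to 27 with each library left out, 29 with the replicate block and 24 with DESeq2. Without CA3 replicate 2, 1 gene was called higher in CA3. Calls for the rat were 6 to 19 with each library left out, 22 with no filter on low counts, 5 with DESeq2 and 3 with the CA1 and CA3 libraries alone, which has fewer samples. The cause of the other changes was not tested. Of the genes described singly, the replicate block over all 16 libraries changed the CA2 and CA3 call for Zcchc12 and Gabrd alone. The block fit without either column of the repeated pairs, which changes both choices at once, lost the call for ENSRNOG00000008620. Genes near 3 CPM rest on few counts in the smaller libraries, which limits their precision.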
